A study of Mus musculus with 6 samples.

Results

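The genes described here encode 9 enzymes or enzyme subunits of the citric acid cycle: Cs, Idh1, Idh2, Idh3a, Ogdh, Suclg1, Suclg2, Fh1 and Mdh2. The rule is a list of names and uses no measured value, and all 9 were found among the 41388 genes of the deposited table. RNA was sequenced from primary hepatocytes of C57BL/6J mice, the parenchymal cells of the liver, freed by collagenase digestion and kept in culture overnight. In 3 libraries (replicates 1, 2 and 3) the cells had received an adenovirus encoding β galactosidase (β-gal), a bacterial enzyme that serves as the control protein, and in 3 (replicates 7, 8 and 9) an adenovirus encoding Aloxe3, the epidermal-type lipoxygenase eLOX3. RNA was collected 24 h after infection in both groups. Every culture was therefore infected, and no uninfected cells were part of the comparison. The transgene came from a virus at a level set by that virus rather than by the cell. Neither the labels nor the methods say whether the cultures of a group came from separate mice, so the p-values measure the spread between these samples only, which may be technical. The comparison asks which transcripts differed between hepatocytes forced to express Aloxe3 and hepatocytes expressing β-gal, and here it is followed through 1 metabolic pathway.

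The citric acid cycle runs in the mitochondrial matrix, where it oxidizes the acetyl group of acetyl-CoA to carbon dioxide and passes the electrons on as NADH and reduced flavin to the respiratory chain. In the liver it is also a crossroads: its intermediates leave for gluconeogenesis and for fatty acid synthesis and are replaced from pyruvate and from amino acids. All of its enzymes are encoded in the nucleus and imported into the mitochondrion. Cs encodes citrate synthase, which joins acetyl-CoA to oxaloacetate. Idh3a encodes the catalytic subunit of the NAD-dependent isocitrate dehydrogenase, and Ogdh the first component of the oxoglutarate dehydrogenase complex. Suclg1 encodes the alpha subunit of succinyl-CoA ligase and Suclg2 its GDP-forming beta subunit. Fh1 encodes fumarase, and Mdh2 the mitochondrial malate dehydrogenase that closes the cycle. A pair of the members belongs to the cycle only in a wider sense: Idh2 encodes an NADP-dependent isocitrate dehydrogenase of the mitochondrion, and Idh1 its counterpart in the cytosol and peroxisome.

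The promoters of Mdh2 and Cs, the pair of members with the highest RPKM as deposited, and of Idh2 are shown. Idh2 was the 1 member of 9 whose groups of libraries did not overlap (as for 19.9% of all genes tested). The promoters are RefSeq sequences of build GRCm38.p6, in windows of 300 bases around the annotated start, read 5′ to 3′ on the strand of the gene. They lie at chr5:135778399-135778698 (Mdh2, + strand), chr10:128337477-128337776 (Cs, + strand) and chr7:80115301-80115600 (Idh2, − strand). Capitals mark matches on either strand to the CCAAT box, the GC box (GGGCGG), the cAMP response element (TGACGTCA) and the element CTCGCGAG.
Mdh2: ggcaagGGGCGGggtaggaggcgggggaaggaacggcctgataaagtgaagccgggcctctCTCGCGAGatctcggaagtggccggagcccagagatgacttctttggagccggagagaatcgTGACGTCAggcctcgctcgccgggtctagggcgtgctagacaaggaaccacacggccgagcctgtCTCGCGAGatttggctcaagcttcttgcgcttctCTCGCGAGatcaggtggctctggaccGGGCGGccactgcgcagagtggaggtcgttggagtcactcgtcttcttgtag
Cs: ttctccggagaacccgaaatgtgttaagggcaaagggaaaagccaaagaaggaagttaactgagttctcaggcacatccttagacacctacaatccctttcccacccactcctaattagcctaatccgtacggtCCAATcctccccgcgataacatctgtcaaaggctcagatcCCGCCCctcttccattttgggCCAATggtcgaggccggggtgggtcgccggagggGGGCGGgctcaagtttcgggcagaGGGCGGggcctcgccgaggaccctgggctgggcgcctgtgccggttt
Idh2: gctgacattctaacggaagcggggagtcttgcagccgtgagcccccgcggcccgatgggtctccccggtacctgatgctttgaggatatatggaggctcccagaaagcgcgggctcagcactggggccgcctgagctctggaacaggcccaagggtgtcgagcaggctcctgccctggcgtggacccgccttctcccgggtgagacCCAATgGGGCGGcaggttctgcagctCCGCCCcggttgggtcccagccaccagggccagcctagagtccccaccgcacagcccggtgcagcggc

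Of the 9 members, all but Idh3a had a promoter among the RefSeq sequences used, 8 members in 14 windows. Ogdh had 6 annotated starts, with windows that partly overlap, and Idh1 had 2. The element CTCGCGAG occurred 3 times in the promoter of Mdh2 and in 0.919% of all 32851 promoters of the same length. The cAMP response element was found in the promoters of Mdh2 and Ogdh, and in 1.79% of all promoters. The letters GCATGCGC, the core of the NRF1 site, were found for Ogdh in 2 windows (2.71% of all promoters). These windows overlap and hold the same match. The CCAAT box was found for 6 members (Cs, Idh1, Idh2, Ogdh, Suclg2 and Fh1) and the GC box for 7 (these 6 and Mdh2), both common elements, present in 37.4% and 35.7% of all promoters. Neither TCAAGGTCA, the binding element of estrogen-related receptors (0.423% of all promoters), nor the DR1 element of PPAR receptors, a direct repeat of AGGTCA with 1 base between (0.0396%), occurred in any of the 14 windows. Both strands were searched, and the letters of these last elements share the AGGTCA half-site. These are matches of letters and not measured binding.

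The values are RPKM, the reads of a gene relative to its length and to all reads of the library, and the libraries held 25521908 to 32431318 reads. Aloxe3 was measured at 2.04, 2.063 and 1.744 RPKM in the β-gal libraries and at 42.29, 45.77 and 56.35 RPKM in the Aloxe3 libraries, as labelled (log2 difference 4.05, SE 0.101, limma adjusted p = 4.737e-06). Aloxe3 replicate 9 stood apart from the other 2 of its group: their derived reads differed from it by a chi-square of 9.94 and 11 per degree of freedom, against 3.76 to 6.05 for the other pairs of replicates. It also had the largest share of reads on transcripts of the mitochondrial genome, 3.697%, against 2.977% and 2.951% in the other Aloxe3 libraries and 2.755% to 2.857% in the β-gal libraries. Of the 13 protein-coding genes of that genome 6 are listed at 0 in every library, so this share and the scaling by it leave them out. Of the 10 hepatocyte markers 9 could be tested, 5 higher and 4 lower with Aloxe3 (1 called, Ttr). Their summed level was 5049 to 5099 RPKM with β-gal and 4883 to 5036 RPKM with Aloxe3, mostly from Alb, without overlap. As a share of the RPKM of all genes the groups overlapped, at 1.498% to 1.513% with β-gal and 1.432% to 1.505% with Aloxe3. Cps1 (0.985 RPKM with β-gal) and Cyp2e1 (2.17 RPKM), highly expressed in adult liver, were low in both groups. Of 8 Kupffer cell and macrophage markers 5 were tested, 4 of them lower and 0 called. Their summed level was 151.0 to 154.5 RPKM with β-gal and 133.0 to 146.2 RPKM with Aloxe3, mostly Cd68 and without overlap, and that of 6 cholangiocyte markers 1509 to 1593 and 1577 to 1716 RPKM, mostly Spp1. Endothelial markers (8) summed to 32.8 to 37.6 and 32.5 to 37.0 RPKM, stellate cell markers (8) to 4.8 to 5.3 and 4.6 to 5.0 RPKM with Lrat at 0, and leukocyte markers (6) to at most 0.409 RPKM. The part of these differences in the values of the cycle enzymes was not tested. In bulk RNA, fewer cells of a type, less RNA per cell and expression of a marker by other cells cannot be told apart.

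All 9 members were well expressed. In order of their mean level with β-gal, Mdh2 stood at 164.9 RPKM ± 5.92 (SD, n = 3), above 98.15% of the 12693 genes that were tested, Cs at 96.27 ± 2.86, Ogdh at 79.09 ± 2.62, Idh1 at 37.39 ± 3.48, Fh1 at 23.31 ± 0.825, Suclg1 at 22.55 ± 0.727, Idh3a at 18.74 ± 0.377, Idh2 at 16.09 ± 0.344 and Suclg2 at 10.53 ± 0.315, above 61.30% of them. The order was the same with Aloxe3. Of the neighbours in the order, only Fh1 and Suclg1 had overlapping ranges with β-gal (22.37 to 23.90 and 21.74 to 23.16 RPKM), so these levels were not separated. Levels per length depend on the length used. For 4 members the smallest length at which the reads came out whole was shorter than the summed exons of GENCODE M21 (2089 against 3562 bases for Mdh2, 2828 against 5779 for Cs, 2403 against 5072 for Idh3a and 2279 against 4623 for Suclg2). If that smallest length is the one behind the values, at the M21 length Mdh2 would stand at 96.73 RPKM, still above Ogdh, but Cs at 47.11 RPKM would fall below Ogdh, and Idh3a at 8.88 RPKM below Idh2. The ratio of RPKM of 1 gene between libraries does not depend on this length, while differences on the log2(RPKM + 1) scale depend on it slightly through the pseudocount.

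**Figure D1:**
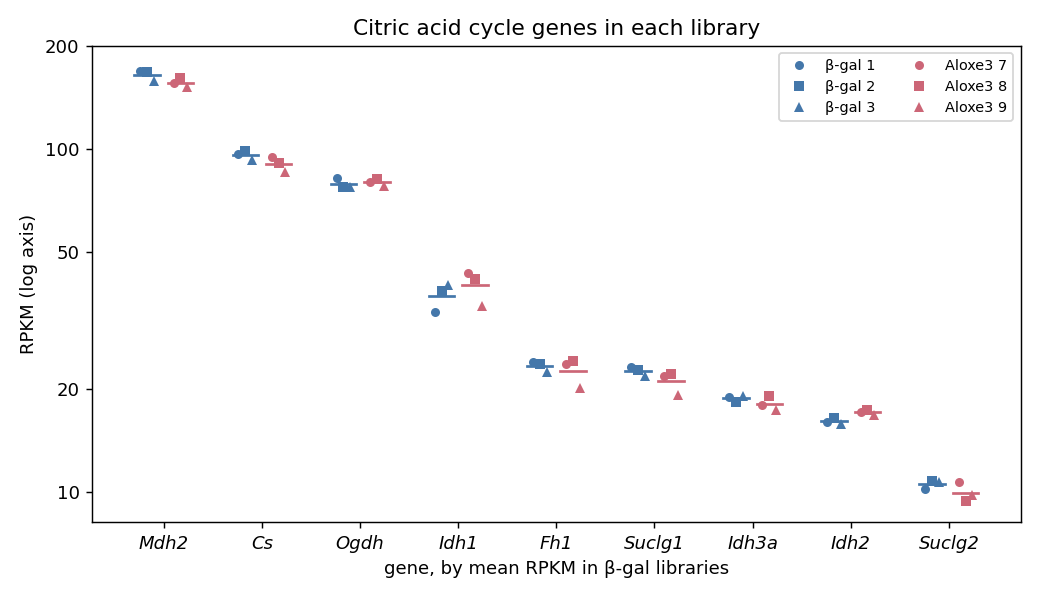
Level of the 9 citric acid cycle genes in each of the 6 libraries, in RPKM on a log axis, with a point for each library and a line at the mean of each group (β-gal replicates 1 to 3, Aloxe3 replicates 7 to 9). The genes span 9.426 RPKM (lowest library of Suclg2) to 168.6 RPKM (highest library of Mdh2), and Idh2 is the 1 gene whose groups do not overlap.

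No member differed between hepatocytes expressing Aloxe3 and β-gal beyond the threshold of the test. Of the members 0 of 9 passed an adjusted p of 0.05 in limma, where 50 of 12693 genes (0.394%) did over the whole table, 45 higher and 5 lower. With an unadjusted p under 0.05 there was 1 member, Idh2, against 12.7% of all tested genes. The log2 difference was below 0 for 6 members and above 0 for 3, where 47.6% of all tested genes lay below 0. Its median was -0.048 over the members and 0.005 over all tested genes. The groups of libraries did not overlap for 1 member, again Idh2, against 19.9% of all tested genes. The 95% intervals of the log2 difference ran from -0.235 at the lowest bound (Suclg1) to 0.316 at the highest (Idh1) over the 9 members, on the log2(RPKM + 1) scale.

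**Figure D2:**
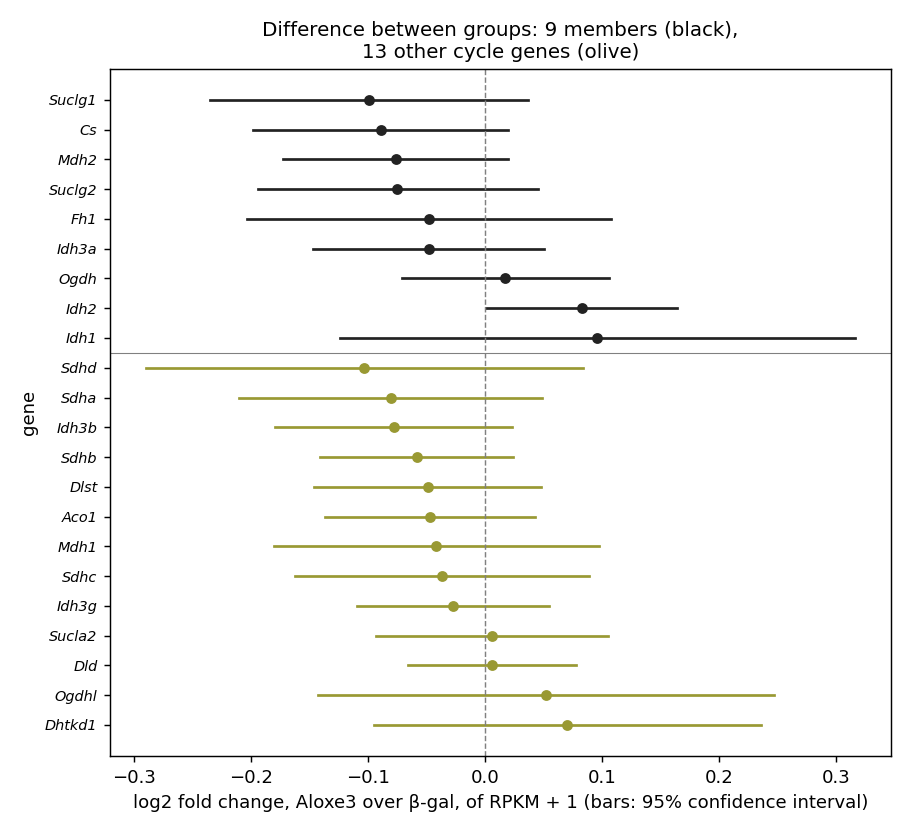
Log2 difference of the 9 citric acid cycle genes (black) and of 13 other genes of the cycle or related to it (olive), Aloxe3 minus β-gal. The scale is log2(RPKM + 1), with a point at the estimate and a bar for the 95% interval from limma (n = 3 per group). The estimates of the 9 genes lie between -0.099 (Suclg1) and 0.096 (Idh1), and of all intervals that of Idh2 alone does not include 0, which did not hold under 9 of 14 alternatives.

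Citrate synthase opens the cycle. Cs (chromosome 10, 128337734 to 128362479, + strand, GRCm38) was measured at 97.08, 98.64 and 93.09 RPKM with β-gal and at 94.84, 91.27 and 85.48 RPKM with Aloxe3, from 6389 to 9047 derived reads per library. Aloxe3 replicate 9 was the lowest library and replicate 7 lay within the β-gal range, so the groups overlapped. The log2 difference was -0.089 (SE 0.047, limma adjusted p = 0.4784), and -0.048 without replicate 9.

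The isocitrate step is served by enzymes with different cofactors and places, and none of their transcripts passed the test. Idh3a (chromosome 9, 54586334 to 54604661, + strand), the catalytic subunit that feeds NADH to the respiratory chain, was at 18.88, 18.31 and 19.02 RPKM with β-gal and at 17.92, 18.99 and 17.38 RPKM with Aloxe3. Replicates 7 and 9 lay below all β-gal libraries and replicate 8 among them (log2 difference -0.048, SE 0.042, limma adjusted p = 0.6669). The difference was -0.021 without replicate 9 and -0.082 without replicate 8. Idh2 (chromosome 7, 80094846 to 80115392, − strand), which makes NADPH in the mitochondrion, was at 16.05, 16.45 and 15.77 RPKM with β-gal and at 17.12, 17.35 and 16.81 RPKM with Aloxe3. Here every Aloxe3 library lay above every β-gal library, and replicate 9 differed little from the other 2. The log2 difference was 0.083 (SE 0.035, 95% interval 0.001 to 0.164, unadjusted p = 0.04848), and it did not pass after adjustment over all genes (limma adjusted p = 0.3917). The unadjusted p was at or over 0.05 under 9 of 14 alternatives, up to 0.1545 without β-gal replicate 3 in limma. The means of Idh2 were 16.09 ± 0.344 and 17.10 ± 0.270 RPKM (SD, n = 3), and its 1131 to 1381 derived reads give a counting error of up to 2.97% per library, wider than the spread within each group (2.14% and 1.58%).

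Idh1 (chromosome 1, 65158616 to 65186500, − strand), the cytosolic and peroxisomal source of NADPH from isocitrate, was the most variable member. It was at 33.48, 38.57 and 40.12 RPKM with β-gal and at 43.57, 41.87 and 34.85 RPKM with Aloxe3. Its coefficient of variation was 9.30% with β-gal and 11.5% with Aloxe3, where counting error accounts for at most 1.98%, and the groups overlapped through β-gal replicates 2 and 3 and Aloxe3 replicate 9. The log2 difference was 0.096 (SE 0.095, limma adjusted p = 0.7111), and without Aloxe3 replicate 9 it was 0.191 (limma adjusted p = 0.3997), and without β-gal replicate 1, the lowest library, it was 0.020.

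Ogdh (chromosome 11, 6291633 to 6356642, + strand), the E1 component that commits 2-oxoglutarate to the cycle, was at 82.12, 77.43 and 77.73 RPKM with β-gal and at 80.15, 81.80 and 78.16 RPKM with Aloxe3. All Aloxe3 libraries fell inside the β-gal range (log2 difference 0.017, SE 0.038, limma adjusted p = 0.8875). With 1 library left out the difference ran from 0.001 (without Aloxe3 replicate 8) to 0.044 (without β-gal replicate 1).

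Succinyl-CoA ligase forms the next step, and the only one of the cycle that makes a nucleoside triphosphate directly. Suclg1 (chromosome 6, 73248382 to 73276911, + strand), the shared alpha subunit, was at 23.16, 22.73 and 21.74 RPKM with β-gal and at 21.84, 22.08 and 19.14 RPKM with Aloxe3. Replicate 9 was lowest and the other Aloxe3 libraries lay within the β-gal range (log2 difference -0.099, SE 0.058, limma adjusted p = 0.5262). Without replicate 9 the difference was -0.036. Suclg2 (chromosome 6, 95473009 to 95718800, − strand), the GDP-forming beta subunit, was at 10.17, 10.76 and 10.67 RPKM with β-gal and at 10.68, 9.426 and 9.779 RPKM with Aloxe3. It was the 1 member whose lowest Aloxe3 library was replicate 8 rather than 9, and replicate 7 lay within the β-gal range (log2 difference -0.075, SE 0.051, limma adjusted p = 0.5775). The difference was -0.121 without replicate 7 and -0.039 without replicate 8. Suclg2 is also the member with the fewest derived reads (589 to 795 at the smallest length that gives whole reads), and 16% of the 50-base windows of its transcripts recur in the processed pseudogene Gm15163 on chromosome X. The authors counted uniquely aligned reads only, so reads of those windows count for neither gene, and Gm15163 itself had 3 to 9 derived reads per library.

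The end of the cycle is formed by fumarase and malate dehydrogenase. Fh1 (chromosome 1, 175600374 to 175625635, − strand) was at 23.90, 23.66 and 22.37 RPKM with β-gal and at 23.56, 24.02 and 20.15 RPKM with Aloxe3. Replicate 7 lay within the β-gal range, replicate 8 just above it and replicate 9 below it. The log2 difference was -0.048 (SE 0.067, limma adjusted p = 0.8046) and turned to 0.029 without replicate 9. Mdh2 (chromosome 5, 135778480 to 135790398, + strand), the most abundant member, was at 168.6, 168.1 and 158.1 RPKM with β-gal and at 156.1, 161.1 and 151.9 RPKM with Aloxe3. Replicates 7 and 9 lay below all β-gal libraries and replicate 8 within their range (log2 difference -0.076, SE 0.041, limma adjusted p = 0.4898).

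Library by library, Aloxe3 replicate 9 was low for most members. Set against the β-gal mean of each gene, the median deviation of the 9 members on the log2(RPKM + 1) scale was 0.012, 0.028 and -0.027 in the β-gal libraries and 0.016, 0.018 and -0.102 in Aloxe3 replicates 7, 8 and 9. Over all tested genes the medians in the Aloxe3 libraries were 0.010, 0.015 and -0.012. Replicate 9 was the lowest Aloxe3 library for 8 of the 9 members, and for 46.8% of all tested genes, and the lowest of all 6 libraries for 5 members (Cs, Idh3a, Suclg1, Fh1 and Mdh2). Its deviation reached -0.225 for Suclg1, -0.201 for Fh1 and -0.169 for Cs, whereas Idh2 (0.060) stayed above 0 and Ogdh (-0.016) near it. Without replicate 9 the median log2 difference of the members was -0.021 in place of -0.048, and 5 members in place of 6 lay below 0. RPKM is relative to all reads of a library, those of the mitochondrial genome included. Scaled to the reads outside the mitochondrial genome, an alternative added after seeing the data, the median was -0.043.

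**Figure D3:**
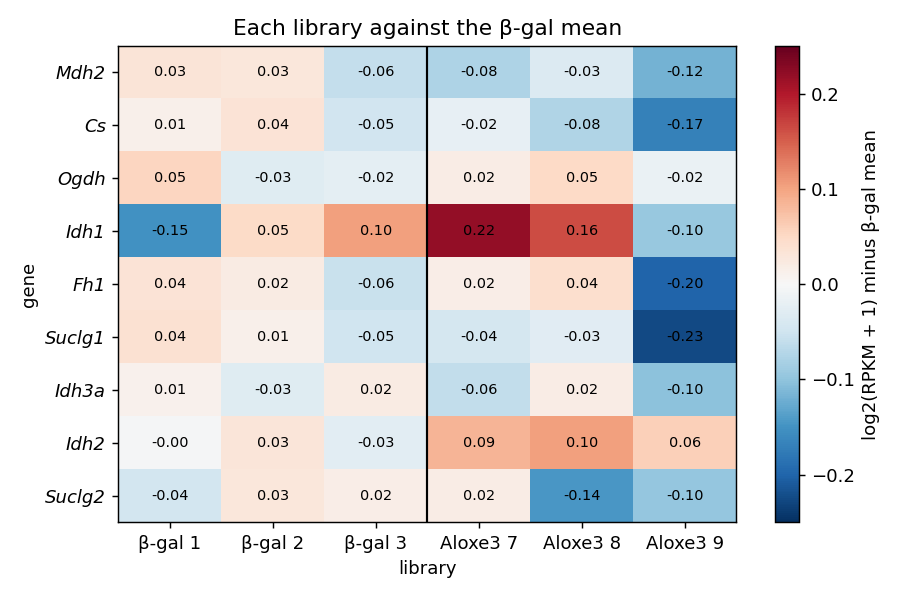
Deviation of each citric acid cycle gene from its β-gal mean in each library, on the log2(RPKM + 1) scale, with libraries in columns, genes in rows, red above and blue below the β-gal mean. Aloxe3 replicate 9 holds the lowest Aloxe3 value of 8 of the 9 genes, down to -0.225 for Suclg1, while replicates 7 and 8 have medians of 0.016 and 0.018.

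**Figure D4:**
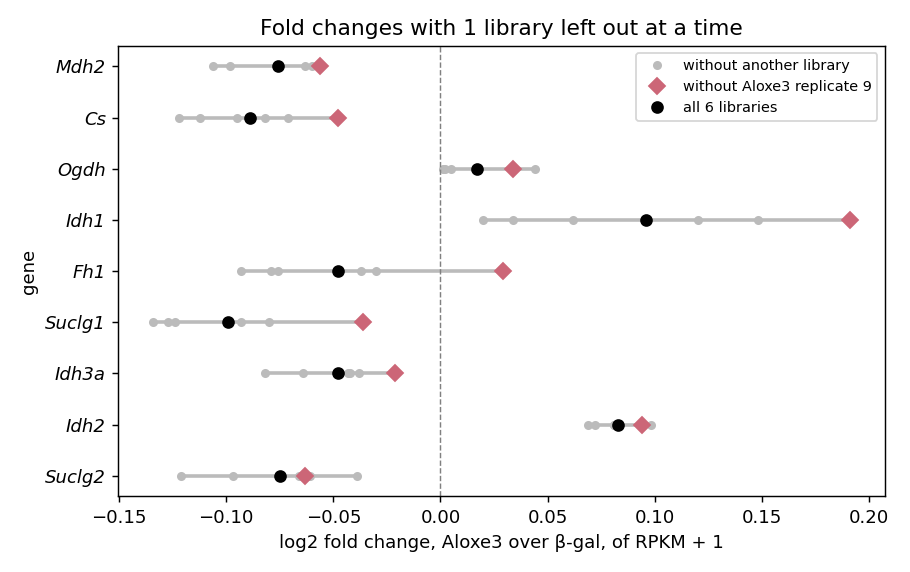
Log2 difference of each citric acid cycle gene, Aloxe3 minus β-gal, with all 6 libraries (black), without Aloxe3 replicate 9 (red diamonds) and without each other library (grey). Fh1 changes sign, to 0.029, and Idh1 moves from 0.096 to 0.191 when Aloxe3 replicate 9 is left out.

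Members of the pathway followed each other across the libraries to different degrees. Over the 6 libraries the log2 levels of Fh1 and Suclg1 had a Pearson correlation of 0.940, Suclg1 and Cs 0.926, Mdh2 and Suclg1 0.873, Mdh2 and Cs 0.835, and Fh1 and Cs 0.819. The lowest was -0.518, between Suclg2 and Idh2. The tested genes most like the mean of the members were Mgst1 (microsomal glutathione S-transferase, r = 0.9962), Fth1 (ferritin heavy chain, 0.9942), Eef1akmt1 (0.994), Ddx56 (0.9887) and Anapc7 (0.9873). Mgst1 was at 175.4, 177.3 and 169.3 RPKM with β-gal and at 177.9, 176.9 and 146.8 RPKM with Aloxe3, so it too was lowest in replicate 9. These correlations are descriptions over 6 libraries that share replicate 9, and they were picked as the highest of the table.

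Ratios between enzymes that share a substrate do not depend on the scaling of a library. Idh3a was at 1.177, 1.113 and 1.206 times the level of Idh2 with β-gal and at 1.047, 1.094 and 1.034 times with Aloxe3. All Aloxe3 ratios lay below all β-gal ratios, with means of 1.165 ± 0.048 and 1.058 ± 0.032 (SD, n = 3). The exact two-sided permutation p was 0.1, the smallest that 3 against 3 can give, and 0.4 after adjustment over the 4 ratios computed. The size of a ratio rests on the lengths behind the values: at the M21 exon lengths, under the same assumption as above, Idh3a would stand at 0.552 times the level of Idh2 with β-gal and at 0.501 times with Aloxe3, Suclg2 at 0.326 times that of Sucla2 and Mdh2 at 2.51 times that of Mdh1 with β-gal. The log2 difference of this ratio between groups, -0.139, does not depend on length. The other 3 ratios overlapped between groups. Idh2 was at 0.393 to 0.479 times the level of its cytosolic counterpart Idh1 with β-gal and at 0.393 to 0.483 times with Aloxe3 (exact permutation p = 0.9). Suclg2 was at 0.635 to 0.685 times the level of Sucla2, the ADP-forming beta subunit, with β-gal and at 0.567 to 0.657 times with Aloxe3 (exact permutation p = 0.4, adjusted 0.8). Mdh2 was at 4.022 to 4.427 times the level of the cytosolic Mdh1 with β-gal and at 3.874 to 4.457 times with Aloxe3 (exact permutation p = 0.7, adjusted 0.9).

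A further 13 genes differed between groups by -0.103 to 0.070 on the log2 scale. They encode enzymes and subunits of the cycle and relatives of these, the cytosolic Aco1 and Mdh1 and the Ogdh homologs Ogdhl and Dhtkd1. All 13 were tested, 0 passed, 9 lay below 0 and 4 above, and the median log2 difference was -0.042. Without Aloxe3 replicate 9 the median was -0.011, with 8 genes below 0, and without replicate 7 it was -0.066. Aco1, which encodes the cytosolic aconitase, differed by -0.047 (-0.015 without replicate 9 and -0.072 without replicate 7). The partners of Idh3a in its complex, Idh3b and Idh3g, differed by -0.078 (-0.045 without replicate 9) and -0.027 (-0.016 without replicate 9, and -0.005 and -0.044 without β-gal replicates 1 and 3). The partners of Ogdh, Dlst and Dld, differed by -0.049 (-0.011 without replicate 9) and 0.006, Sucla2 by 0.006 and Mdh1 by -0.042 (0.025 without replicate 9). The 4 subunits of succinate dehydrogenase, which is also complex II of the respiratory chain, differed by -0.080 (Sdha), -0.058 (Sdhb), -0.037 (Sdhc) and -0.103 (Sdhd). Without replicate 9 these were -0.017 (Sdha), -0.036 (Sdhb), -0.076 (Sdhc) and -0.006 (Sdhd). Sdhc was at 0.024 without replicate 8, and Sdhd at -0.181 without replicate 7. Sdhb was the 1 gene of these 13 whose groups did not overlap, against 19.9% of all genes tested, and was lower with Aloxe3 at 57.31, 57.89 and 54.89 RPKM against 60.21, 58.56 and 58.43 RPKM with β-gal (limma adjusted p = 0.534). Sdhd was at 88.81, 90.42 and 88.96 RPKM with β-gal and at 92.79, 85.34 and 72.62 RPKM with Aloxe3, the low value again in replicate 9. Ogdhl (0.052) and Dhtkd1 (0.070), homologs of Ogdh, were near 1 RPKM in both groups, and Dhtkd1 ran from 0.041 without replicate 8 to 0.128 without replicate 9. Replicate 9 was the lowest Aloxe3 library for 11 of these 13 genes.

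The pyruvate dehydrogenase complex supplies the cycle with acetyl-CoA, and of its 13 listed subunits, regulators and carriers 0 passed the test, 8 lay below 0 and 5 above, with a median of -0.004. The median was -0.036 without β-gal replicate 1, turned to 0.037 without Aloxe3 replicate 9, to 0.031 and 0.003 without β-gal replicates 2 and 3 and to 0.001 when scaled to the reads outside the mitochondrial genome, so it showed no direction. The groups did not overlap for 2 of the 13 genes, against 19.9% of all genes tested. Dlat, the acetyltransferase core, was at 16.70, 16.29 and 16.35 RPKM with β-gal and at 15.57, 15.31 and 14.27 RPKM with Aloxe3, without overlap (log2 difference -0.121, SE 0.042, limma adjusted p = 0.3148). Pdha1, of the E1 component, did not overlap either and differed by -0.099 (-0.035 without replicate 9), while Pdhb (-0.004) and Pdhx (0.067, and 0.027 without β-gal replicate 3) overlapped. The kinases that switch the complex off differed by -0.092 (Pdk1), 0.170 (Pdk2), 0.059 (Pdk3) and -0.007 (Pdk4). With 1 library left out they ran from -0.183 (without Aloxe3 replicate 7) to -0.032 (without replicate 9) for Pdk1, from 0.091 (without β-gal replicate 1) to 0.236 (without β-gal replicate 3) for Pdk2 and from 0.024 (without β-gal replicate 3) to 0.092 (without β-gal replicate 2) for Pdk3. The phosphatases and their regulator differed by 0.097 (Pdp1, 0.046 without Aloxe3 replicate 7), -0.004 (Pdp2) and 0.020 (Pdpr), and the mitochondrial pyruvate carrier by -0.023 (Mpc1) and -0.029 (Mpc2).

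The 1 gene around the cycle that passed the test was Gpt2, the mitochondrial alanine aminotransferase, which interconverts alanine and 2-oxoglutarate with pyruvate and glutamate. It was at 33.28, 34.15 and 33.49 RPKM with β-gal and at 42.24, 41.89 and 39.41 RPKM with Aloxe3, without overlap (log2 difference 0.284, SE 0.038, limma adjusted p = 0.03279). The call was lost (limma adjusted p = 0.0741 to 0.146) under 7 of 14 alternatives, among them leaving out any library but Aloxe3 replicate 9, while the log2 difference stayed between 0.265 and 0.314. Its cytosolic counterpart Gpt was at 8.559, 7.863 and 7.675 RPKM with β-gal and at 6.945, 7.204 and 6.598 RPKM with Aloxe3 (log2 difference -0.190, SE 0.052, limma adjusted p = 0.2527). Both belong to a list of 17 genes that refill or drain the cycle, of which 15 were tested, 10 below 0 and 5 above, with a median of -0.032. That median was -0.077 without Aloxe3 replicate 7, -0.010 without replicate 8, -0.012 without replicate 9 and -0.058 without β-gal replicate 3.

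The remaining lists held no gene that passed. Of 9 carriers of cycle intermediates 5 were tested, 4 below 0 and 1 above (1 below and 4 above without Aloxe3 replicate 9), with the smallest p for the citrate carrier Slc25a1 (-0.065, and -0.025 and -0.032 without β-gal replicate 1 and Aloxe3 replicate 8) and the aspartate-glutamate carrier Slc25a12 (0.035). All 10 genes of assembly, lipoylation and metabolite repair were tested, 2 below 0 and 8 above (5 and 5 without β-gal replicate 1, β-gal replicate 2 or Aloxe3 replicate 7), with the lipoylation genes Lipt1 (0.096, and 0.036 without Aloxe3 replicate 8) and Lias (-0.072, and -0.028 without Aloxe3 replicate 9) at the smallest p. Of 12 regulators of mitochondrial genes, 6 lay below 0 and 6 above. Esrra, the estrogen-related receptor alpha, was at 21.85, 22.09 and 21.79 RPKM with β-gal and at 20.48, 18.62 and 18.72 RPKM with Aloxe3, without overlap (log2 difference -0.178, SE 0.044, limma adjusted p = 0.2107). Its coactivator Ppargc1a was at 1.353, 1.518 and 1.527 RPKM with β-gal and at 1.516, 1.778 and 1.795 RPKM with Aloxe3 (log2 difference 0.128, SE 0.066, limma adjusted p = 0.4679). Over these lists of 74 genes, 68 were tested and 1 passed, where 0.394% of all tested genes did.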

How the data were processed

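Poly-A selected RNA of 6 hepatocyte cultures was sequenced in single reads of 50 bases. Per the submitters' processing notes and the methods, the authors aligned reads with STAR 2.0.4b (GRCm38.p2, Ensembl) and counted unique, unambiguous reads per gene with featureCounts 1.4.5. They deposited RPKM, and their step from counts to RPKM is not given in the sources used here. Library sizes in reads were derived from the RPKM steps. Reads per gene came out whole (tolerance 0.02) at the GENCODE M21 exon length for 66.2% of the genes above 0, and otherwise from the smallest length that gave whole reads, so that those reads are known up to a common factor. Counting errors cover counting only. Of the identifiers, 40340 matched M21 symbols and 1048 did not.

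Groups came from the labels. On the log2(RPKM + 1) scale, the 12693 genes whose mean reached 0.5 RPKM were compared between groups with limma 3.58.1 (lmFit, eBayes with trend) in R 4.3.3 and Benjamini-Hochberg adjustment at 0.05, two-sided. Folds on this scale understate changes of low genes. Ratios were tested by exact permutation in scipy 1.17.1. Named genes were the members, Aloxe3, the list of other cycle enzymes, the pyruvate dehydrogenase list, the 2 genes with the smallest p in each further list, and the 5 genes most correlated with the members' mean. Marker genes are named as examples of their lists. The members and lists were chosen with earlier results of these data known, and 2 listed genes are not reported here and enter no count of the lists. The fit was tested on simulated data, with a spread between libraries that was set, not measured. It called 15 of 50 genes changed 1.25-fold, 46 of 50 changed 1.5-fold and 9 of 12514 unchanged genes. The folds of the members, on the log2(RPKM + 1) scale, ran from 0.934 (Suclg1) to 1.069 (Idh1), so changes of that size could be missed. The alternatives tried were another pseudocount, other filters, rescaling to the same median, quantile normalization, eBayes without trend, voom on the derived reads, each library left out, and scaling to reads outside the mitochondrial genome.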

Additional observations from a re-analysis of the deposited data

How the results depend on the processing

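No paired analysis was possible because the groups share no replicate number. Under all 14 alternatives 0 members were called, with limma adjusted p of at least 0.3185 (unadjusted p at or over 0.05 under 9 of them for Idh2, 12 for Cs and 13 each for Idh1 and Suclg2), and 125 of 126 values of members kept their direction. The exception was Fh1, at -0.093 to 0.029 (log2) with 1 library left out. The members' median ran from -0.082 to -0.021 with 1 library left out (-0.076, -0.082 and -0.021 without Aloxe3 replicates 7, 8 and 9), the cause of which was not tested. Genes called over the table, 50 in all, came to 7 without the filter on low values, 174 with voom and 6 to 19 with 1 library left out (9, 10 and 16 without β-gal replicates 1, 2 and 3, and 6, 11 and 19 without Aloxe3 replicates 7, 8 and 9), where fewer samples entered. Of the other pathway genes, 0 were called without the filter or without the trend, and 0 to 1 with 1 library left out.

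Among Aloxe3 and the named genes of the pathway lists, 35 in all, 28 of 478 values changed sign, and those that did are named here. Pdhb was at 0.008 under quantile normalization, and Pdhb and Pdp2 were each at 0.001 when scaled outside the mitochondrial genome (added after seeing the data). Pdpr was at -0.003 under quantile normalization, and Dld and Sucla2 at -0.006 and -0.007 when rescaled to the same median. With 1 library left out, the ranges were -0.001 to 0.015 (Dld), -0.093 to 0.025 (Mdh1), -0.081 to 0.009 (Mpc1), -0.067 to 0.032 (Mpc2), -0.021 to 0.096 (Ogdhl), -0.056 to 0.044 (Pdhb), -0.081 to 0.114 (Pdk4), -0.057 to 0.040 (Pdp2), -0.033 to 0.069 (Pdpr), -0.076 to 0.024 (Sdhc), -0.003 to 0.076 (Slc25a12) and -0.020 to 0.042 (Sucla2). The log2 differences of the 4 ratios ran from -0.097 to 0.065 (Idh2 to Idh1), from -0.082 to 0.019 (Mdh2 to Mdh1), from -0.171 to -0.113 (Idh3a to Idh2) and from -0.127 without Aloxe3 replicate 7 to -0.022 without replicate 8 (Suclg2 to Sucla2).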
